A study of Mus musculus with 6 samples.

Results

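A set of 9 genes of hemoglobin synthesis and red cell maturation were followed in bone of aged mice on a control or a high-fat diet. They were the adult alpha-globin genes Hba-a1 and Hba-a2, the adult beta-globin genes Hbb-bs and Hbb-bt, the heme enzyme gene Alas2, the carbonic anhydrase gene Car1, the transcription factor gene Klf1, the erythropoietin receptor gene Epor and the anion exchanger gene Slc4a1. They were chosen by gene symbol, and all 9 of 9 were found among the 32000 genes of the expression table. The libraries were made from polyadenylated RNA of cortical bone, per the labels, of male C57BL/6J mice that were 18 months old. CD mice had received a control diet, which the labels call a chewing diet, for 12 months (3 libraries, CD 1, CD 2 and CD 4). HFD mice had received a high-fat diet for the same 12 months (3 libraries, HFD 2, HFD 3 and HFD 4). The labels name no transgene, deletion or further agent in either group. The tissue is labelled cortical bone, while the study's methods for bulk sequencing speak of bone marrow cells from femurs and tibias and its results of bone particles. Which of these was sequenced is not settled, and the libraries held high levels of marrow transcripts in both groups.

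Red blood cells are made in the bone marrow, where precursors gather around macrophages, divide under the control of erythropoietin, fill with hemoglobin and then lose their nucleus. Adult hemoglobin joins alpha and beta chains with heme, whose synthesis in red cell precursors starts with the enzyme that Alas2 encodes. Freshly enucleated cells, the reticulocytes, still carry globin mRNA for a time, so that globin transcripts in a bone sample come from late precursors, reticulocytes and residual blood alike. Because whole tissue was sequenced, fewer cells of a type and less RNA per cell cannot be told apart.

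The depth was 54.5 to 61.6 M gene counts per library. Mitochondrially encoded genes took 15.3% to 38.6% of the counts, and the levels of the 9 genes are therefore given as CPM, the counts scaled to a common library size, after trimmed mean of M values scaling (TMM-scaled CPM) unless FPKM is named. Whether the libraries came from separate animals is not in the labels, so p-values measure the spread between these libraries, which may be technical. Of 19831 genes that passed the filter on low counts, none was called by edgeR's quasi-likelihood test (0% at a Benjamini-Hochberg adjusted p under 0.05). An exact permutation test of 3 libraries against 3 cannot give a p below 0.1. Libraries CD 1 and CD 2 stood apart from the other 4 in transcripts of intestinal epithelium, which are taken up below with Car1.

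The members of each globin pair are near-identical copies, which bears on how far their counts can be read one by one. In the GENCODE M21 annotation of GRCm38, the coding sequences of Hba-a1 and Hba-a2 are 429 bases long and differ at 1 base, C381T (counted from the first base of the start codon, the base of Hba-a1 first). Those of Hbb-bs and Hbb-bt are 444 bases long and also differ at 1 base, C417T (the base of Hbb-bs first). Both differences stand at the third position of a codon. The 40 coding bases around each difference are shown, with that base in capitals. Taken by itself, a read inside the coding sequence can be assigned to a copy only by covering that base. The study's methods name paired reads, and a mate outside the coding sequence can also tell the copies apart.
Hba-a1, chr11:32284323-32284362, plus strand: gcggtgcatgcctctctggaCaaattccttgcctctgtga
Hba-a2, chr11:32297140-32297179, plus strand: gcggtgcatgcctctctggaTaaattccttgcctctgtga
Hbb-bs, chr7:103826673-103826712, minus strand: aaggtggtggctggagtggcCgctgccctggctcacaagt
Hbb-bt, chr7:103812664-103812703, minus strand: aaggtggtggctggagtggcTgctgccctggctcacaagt
Of all 150-base stretches of the annotated transcript, 48.4% of those of Hba-a1 and 65.7% of those of Hba-a2 also occurred in the other copy. The shares were 58.7% for Hbb-bs and 50.7% for Hbb-bt. These shares are for single reads, and read pairs were not considered. Levels of single globin genes are therefore uncertain, and each pair is also given as a sum.

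The alpha-globin genes lie on chromosome 11, Hba-a1 at 32283511 to 32284465 and Hba-a2 at 32296489 to 32297298 on the plus strand (GRCm38). The level of Hba-a1 was 3566, 5969 and 1929 TMM-scaled CPM in CD 1, CD 2 and CD 4 and 3478, 10920 and 4407 in HFD 2, HFD 3 and HFD 4. HFD 3 was the highest library, CD 2 came second and CD 4 was the lowest, so the groups overlapped. The level of Hba-a2 was 2611, 4265 and 1418 in the CD libraries and 2495, 7787 and 2891 in the HFD libraries, in the same order of libraries. Summed, the pair stood at 6176, 10234 and 3346 in the CD libraries and 5973, 18701 and 7298 in the HFD libraries. The fitted HFD level of the sum was higher by 0.69 ± 0.77 on the log2 scale (SE, n = 3 per group), a difference smaller than its error (adjusted p = 0.792, edgeR quasi-likelihood test with Benjamini-Hochberg adjustment). Without HFD 3 the difference of the sum was 0.011.

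The beta-globin genes lie on the minus strand of chromosome 7, Hbb-bs at 103826534 to 103827928 and Hbb-bt at 103812524 to 103813996. Hbb-bs stood at 3986, 6209 and 1817 TMM-scaled CPM in the CD libraries and at 4176, 11910 and 4579 in the HFD libraries. Hbb-bt stood at 1907, 3016 and 917 in the CD libraries and at 2174, 6061 and 2250 in the HFD libraries. As for alpha-globin, CD 2 lay above HFD 2 and HFD 4, and the range within each diet was larger than the difference between the group means. The summed pair reached 5894, 9224 and 2735 in the CD libraries and 6351, 17969 and 6829 in the HFD libraries. The sum was fitted 0.80 ± 0.77 higher in HFD on the log2 scale (SE, n = 3 per group), with an adjusted p of 0.758 in edgeR's quasi-likelihood test with Benjamini-Hochberg adjustment, and 0.15 higher without HFD 3.

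Together the 4 globin genes took 0.773%, 2.41% and 0.573% of all gene counts in CD 1, CD 2 and CD 4 and 1.56%, 4.68% and 1.17% in HFD 2, HFD 3 and HFD 4. The mean share was 1.25% ± 1.01 in CD and 2.47% ± 1.93 in HFD (SD, n = 3 each), a difference of 1.22 percentage points (two-sided exact permutation test, p = 0.5). Without HFD 3 the difference was 0.111 percentage points. The range over the libraries of each diet was thus wider than the difference of 1.22 percentage points, while the SD exceeded it in HFD only. Per length, the globin genes were among the most abundant in the table, with ranks of 19 to 24 of all genes by mean FPKM.

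The copies of each pair kept nearly constant proportions while their levels varied severalfold. The count ratio of Hba-a1 to Hba-a2 was 1.37, 1.40 and 1.36 in the CD libraries and 1.39, 1.40 and 1.52 in the HFD libraries. That of Hbb-bs to Hbb-bt was 2.09, 2.06 and 1.98 in the CD libraries and 1.92, 1.97 and 2.04 in the HFD libraries. The ratio of summed alpha-globin to summed beta-globin counts was 1.05, 1.11 and 1.22 in CD 1, CD 2 and CD 4 and 0.941, 1.04 and 1.07 in HFD 2, HFD 3 and HFD 4. The groups overlapped in all of these ratios. The difference of the alpha to beta ratio was −0.15 on the log2 scale (exact permutation test, p = 0.2, adjusted p = 0.418 over 23 ratios compared within libraries). The ratios were chosen after the data were seen.

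**Figure D1:**
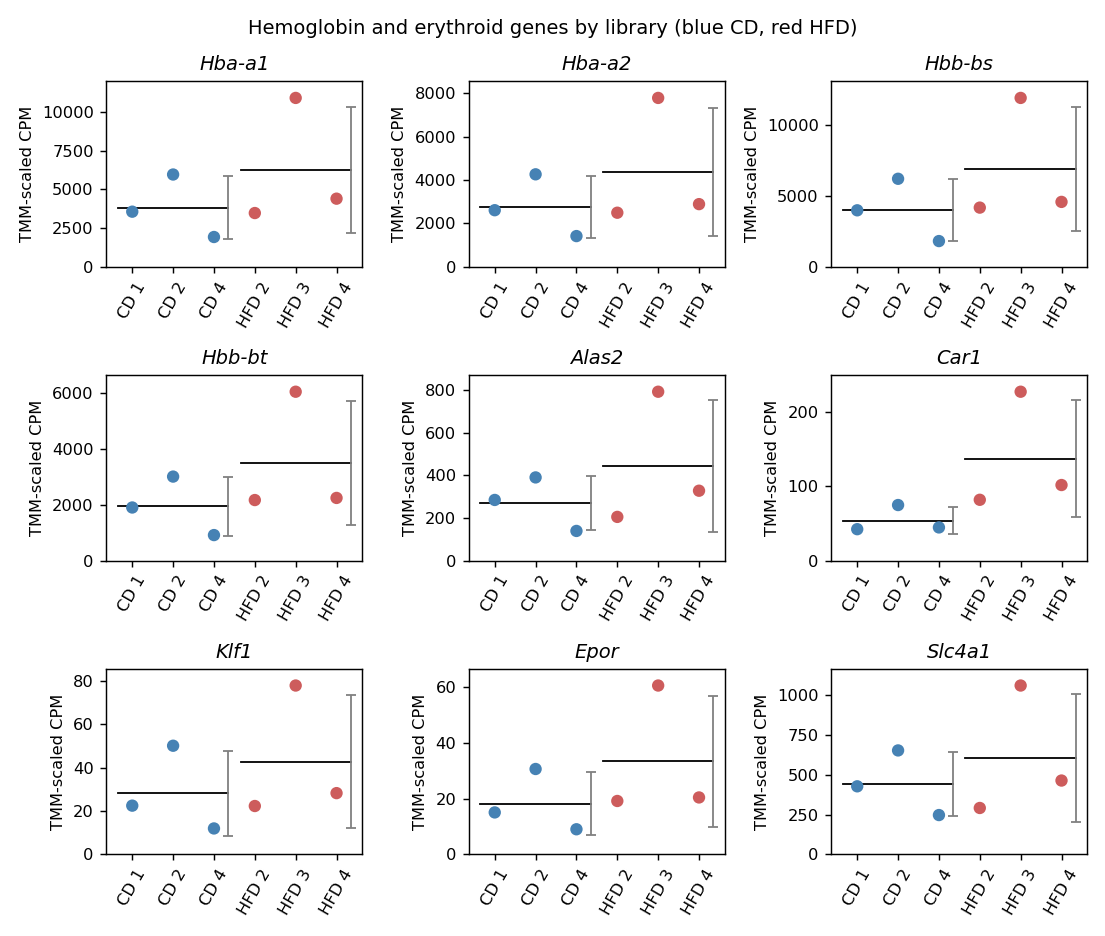
TMM-scaled CPM (vertical axis, linear, from 0) of each of the 9 genes in the 6 libraries (horizontal axis); points are libraries, black lines are group means and grey bars are the SD (n = 3). HFD 3 is the highest library in all 9 panels, for example 10920 for Hba-a1, and CD 4 the lowest in 8 of them.

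Alas2 (chromosome X, 150547375 to 150570638, plus strand) encodes the erythroid form of aminolevulinic acid synthase, which carries out the first step of heme synthesis. Its level was 285, 390 and 139 TMM-scaled CPM in the CD libraries and 205, 792 and 328 in the HFD libraries. The libraries stood in the same order as for Hba-a1 and Hba-a2, with HFD 3 and CD 2 on top and HFD 2 below CD 1. The fitted difference was 0.70 ± 0.59 on the log2 scale (adjusted p = 0.723, edgeR quasi-likelihood test with Benjamini-Hochberg adjustment), and −0.026 without HFD 3. Alas2 was the only one of the 9 genes whose span overlapped another annotated gene, Apex2 on the opposite strand, which had 324 to 778 counts against 8091 to 58499 for Alas2.

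Klf1 (chromosome 8, 84901928 to 84905295, plus strand) encodes a zinc finger factor that activates beta-globin and many other red cell genes. Its level was 22.5, 50.2 and 12.0 TMM-scaled CPM in the CD libraries and 22.4, 78.0 and 28.3 in the HFD libraries. CD 1 and HFD 2 were nearly equal, and the fitted difference was 0.60 ± 0.64 on the log2 scale (adjusted p = 0.780, edgeR quasi-likelihood test with Benjamini-Hochberg adjustment). Without HFD 3 it was −0.16.

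Epor (chromosome 9, 21958897 to 21963506, minus strand) encodes the receptor through which erythropoietin keeps early precursors alive. Its level was the lowest of the 9 genes, at 15.1, 30.7 and 9.04 TMM-scaled CPM in the CD libraries and 19.2, 60.7 and 20.5 in the HFD libraries. CD 2 lay above HFD 2 and HFD 4. The fitted difference was 0.87 ± 0.59 on the log2 scale (adjusted p = 0.667, edgeR quasi-likelihood test with Benjamini-Hochberg adjustment), and 0.12 without HFD 3.

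Slc4a1 (chromosome 11, 102348824 to 102365280, minus strand) encodes band 3, the chloride and bicarbonate exchanger that also anchors the red cell membrane to its skeleton. Its level was 427, 652 and 247 TMM-scaled CPM in the CD libraries and 291, 1059 and 463 in the HFD libraries. It showed the smallest difference of the 9 genes, 0.45 ± 0.57 on the log2 scale (adjusted p = 0.816, edgeR quasi-likelihood test with Benjamini-Hochberg adjustment). Without HFD 3 it was −0.23, and HFD 2 lay below CD 1 and CD 2.

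Car1 (chromosome 3, 14766216 to 14808365, minus strand) encodes a carbonic anhydrase that is abundant in red cells and that the mouse colon epithelium also makes. Its level was 42.4, 74.9 and 44.7 TMM-scaled CPM in CD 1, CD 2 and CD 4 and 81.9, 227 and 102 in HFD 2, HFD 3 and HFD 4. It was the only one of the 9 genes whose groups did not overlap on this scale, against 4.97% of all tested genes with HFD apart on the higher side, and with 3 libraries a group the exact permutation test gave p = 0.1, the smallest it can give. On the FPKM scale the groups did overlap, at 19.0, 65.3 and 29.5 in the CD libraries and 72.3, 203 and 59.9 in the HFD libraries (exact permutation test, p = 0.2). The fitted difference was 1.34 ± 0.45 on the log2 scale, a 2.54-fold higher level in HFD, with an unadjusted p of 0.0187 and an adjusted p of 0.466 in edgeR's quasi-likelihood test with Benjamini-Hochberg adjustment. Without HFD 3 the difference was 0.77.

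Intestinal transcripts separated the same libraries as the proportion of Car1 to alpha-globin did. Per 1000 alpha-globin counts, CD 1 had 6.86 and CD 2 had 7.31 counts of Car1. CD 4 had 13.4 such counts, and HFD 2, HFD 3 and HFD 4 had 13.7, 12.2 and 13.9. A list of 10 intestinal genes was read in the same libraries. Car4, which was also present in CD 1 and CD 2, was set aside after the values were seen, and the other 9 genes summed to 9 counts in CD 1 and 54 in CD 2 and to 7241, 7897, 8015 and 8117 in CD 4, HFD 2, HFD 3 and HFD 4. In CD 1 6 of these 9 genes and in CD 2 5 of them had no count, while none was at 0 in the other 4 libraries. With Car4, the summed level of the 10 genes ranged from 4.13 to 137 TMM-scaled CPM over the CD libraries and from 117 to 181 over the HFD libraries. Among the 4 libraries with intestinal transcripts, the intestinal sum varied little, whereas the Car1 count went from 2596 in CD 4 and 5096 in HFD 4 to 5636 in HFD 2 and 16790 in HFD 3. The part of intestinal transcripts in the Car1 result was not tested. With CD 1 and CD 2 left out, the Car1 difference of CD 4 against the 3 HFD libraries was 1.62 on the log2 scale, and the other 8 genes then had values of 1.29 to 1.93, without a test of the difference between them. That comparison rests on CD 4 alone, the library with the lowest level of 8 of the 9 genes, and assumes that it varies like the HFD libraries.

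Within libraries, 23 ratios were compared. The groups did not overlap in 4 of the 23 (17.4%), and all 4 had Slc4a1 as the denominator and were higher in HFD. Of single tested genes, 4.97% were apart with HFD higher and 10.2% with HFD lower. Those shares are for TMM-scaled CPM and are not a background for count ratios that reuse the same genes. Alas2 to Slc4a1 was 0.667, 0.599 and 0.564 in the CD libraries and 0.704, 0.748 and 0.708 in the HFD libraries. Car1 to Slc4a1 was 0.0992, 0.115 and 0.181 in the CD libraries and 0.281, 0.215 and 0.220 in the HFD libraries. Its lowest values were in CD 1 and CD 2, the libraries with few intestinal transcripts, and the part of that split was not tested. For alpha-globin to Slc4a1 the values were 14.5, 15.7 and 13.6 in CD and 20.5, 17.7 and 15.8 in HFD, so that CD 2 and HFD 4 nearly touched. For beta-globin to Slc4a1 they were 13.8, 14.2 and 11.1 in CD and 21.8, 17.0 and 14.7 in HFD. Each of these reached p = 0.1, the smallest the exact permutation test can give, and 0.418 after adjustment over the 23 ratios, so that none passed. They share their denominator and are not independent of each other. The differences of Klf1 and Epor to Slc4a1 had the same sign (0.27 and 0.48 on the log2 scale), which that order also gives, with overlapping groups.

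**Figure D2:**
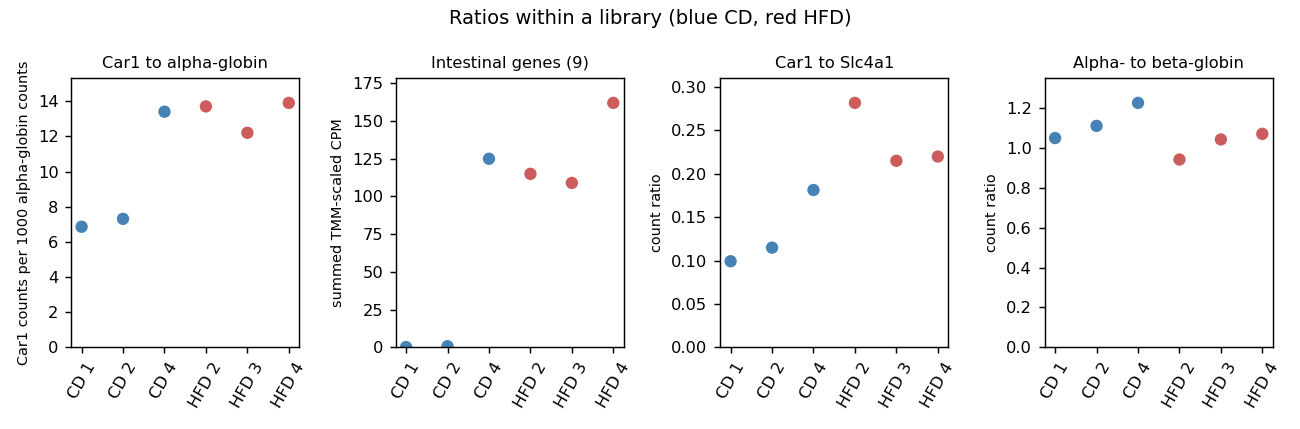
From left to right, Car1 counts per 1000 alpha-globin counts, the summed TMM-scaled CPM of 9 intestinal genes, the count ratio of Car1 to Slc4a1 and the count ratio of alpha- to beta-globin, with the 6 libraries on the horizontal axis and 1 point per library; all vertical axes are linear and start at 0. CD 1 and CD 2 lie apart in the first panel (6.86 and 7.31 against 12.2 to 13.9) and in the second, and the diets do not overlap in the third.

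Across the 9 genes, none was called by edgeR's quasi-likelihood test, as for all tested genes. At an unadjusted p under 0.05, 1 of the 9, Car1, was higher in HFD, against 2.46% of all tested genes, and none was lower, against 7.2%. DESeq2 called none of the 9 and 1.65% of the genes it tested, with its smallest adjusted p among the 9, 0.102, at Car1, and limma on log2(FPKM + 1) also called none. None of the 9 was apart on the lower side, against 10.2% of tested genes. All 9 had a fitted difference above 0, against 47.5% of tested genes, with a median of 0.71 against −0.031 for all tested genes. Since the 9 genes varied together from library to library, they do not give 9 separate readings of the diet. HFD 3 was the highest library for 9 of 9 genes, CD 2 the second highest for 8 and CD 4 the lowest for 8, and the highest level was 4.29 to 6.71 times the lowest. Without HFD 3 the median was 0.045 (−0.072 for all genes tested then), with 5 of the 9 above 0 and 4 below.

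**Figure D3:**
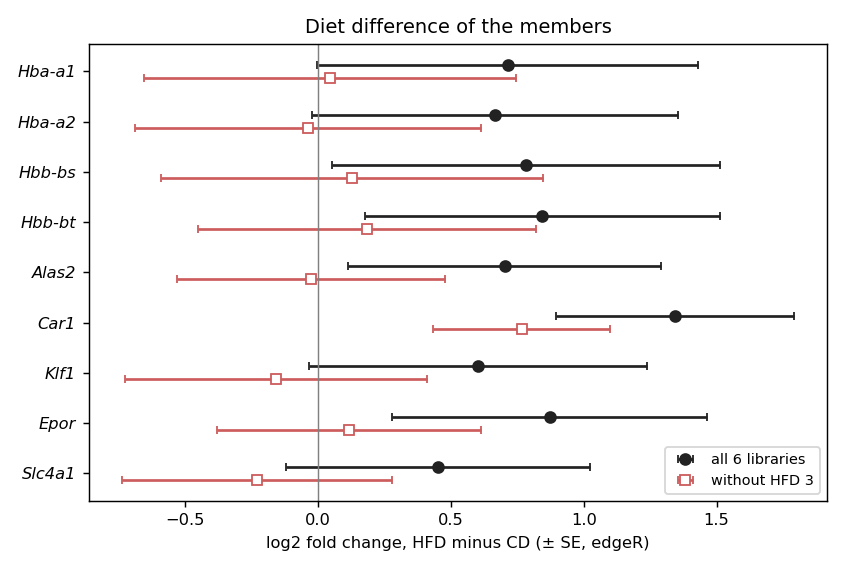
Fitted log2 fold change of HFD minus CD (horizontal axis, edgeR, bars are SE) for the 9 genes (vertical axis), with all 6 libraries (filled circles) and without HFD 3 (open squares). All 9 values lie above 0 with all libraries, with a median of 0.71, and 5 of the 9 without HFD 3, where the median is 0.045.

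Per length, the order of the genes was the same in most libraries. The authors' FPKM averaged 4553 ± 3708 for Hbb-bs, 4140 ± 3353 for Hba-a1, 3635 ± 2887 for Hba-a2 and 2422 ± 1959 for Hbb-bt in CD (SD, n = 3). Alas2 followed at 97.0 ± 69.7, Slc4a1 at 78.6 ± 57.8, Car1 at 37.9 ± 24.3, Klf1 at 16.8 ± 16.4 and Epor at 8.26 ± 7.40. In HFD the means were 9217 ± 7027, 7895 ± 6145, 6771 ± 5421 and 5121 ± 3919 FPKM for the globin genes in that order. They were 187 ± 156 for Alas2, 126 ± 100 for Slc4a1, 112 ± 79.3 for Car1, 28.7 ± 24.2 for Klf1 and 17.4 ± 14.5 for Epor. The only exchanges of neighbours were Hba-a1 just above Hbb-bs in CD 4 and Car1 above Slc4a1 in HFD 2. Most neighbours in the order differed by less than the larger of their SDs. The exceptions were the step from Car1 to Klf1 in HFD and the large step from the globin genes to Alas2. That large step did not overlap over the libraries, from 1073 FPKM for Hbb-bt in CD 4 to 367 for Alas2 in HFD 3 at the closest. The SDs are between libraries, over which the genes rose and fell together, so they do not measure the steps within a library.

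The genes whose level ran most like that of the 9 were sought among 11299 tested genes, by Pearson's r over the 6 libraries with the mean of 7 units (the summed pairs and the 5 single genes). Among the closest were Dhrs11 (r = 0.999), Lin54 (0.997), Ctse (0.995) and Fem1b (0.995). Dhrs11 stood at 41.2, 64.7 and 27.2 TMM-scaled CPM in the CD libraries and 41.8, 103 and 49.1 in the HFD libraries, again with HFD 3 highest and CD 4 lowest. The slopes differed, at 0.96 for Ctse but 0.20 for Fem1b and 0.38 for Lin54, per unit of the mean on the log2 scale. With 6 points that share library depth and scaling, and with the highest of many r taken, these values are descriptions. Each unit was itself correlated with the mean of the others, with r from 0.951 to 0.997 for all but Car1 (r = 0.843).

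Short stretches upstream of the start sites are shown for 3 genes because the members varied together and stand for the alpha chain, the beta chain and the receptor. RefSeq promoter windows (GRCm38.p6) were found for 7 of the 9 genes. The 120 bases before the start annotated by RefSeq, which is not the gene end in the expression table printed above, are given 5′ to 3′ on the gene's strand, with matches to 4 motifs in capitals, each searched on both strands. The GATA motif was AGATAA, where the first base could also be T and the last base could also be G. The second was CCNCNCCC, which includes the CACCC box bound by Klf1. The third was the box CCAAT and the last was the box TATAA. The matches of CCNCNCCC in Epor overlap each other.
Hba-a2, chr11:32296372-32296491, plus strand: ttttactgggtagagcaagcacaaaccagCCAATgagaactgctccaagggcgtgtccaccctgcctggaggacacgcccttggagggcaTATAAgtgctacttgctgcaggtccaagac
Hbb-bs, chr7:103827929-103828048, minus strand: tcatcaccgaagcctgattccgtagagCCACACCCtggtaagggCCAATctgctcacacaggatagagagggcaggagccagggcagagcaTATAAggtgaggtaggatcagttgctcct
Epor, chr9:21963577-21963696, minus strand: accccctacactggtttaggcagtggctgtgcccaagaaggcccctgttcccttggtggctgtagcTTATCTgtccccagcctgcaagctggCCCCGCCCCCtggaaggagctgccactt
TATAA was found in all 4 globin windows and in none of the other 3, against 11.8% of 32851 windows of the same length. CCAAT was found in 5 of 7 (the globin genes and Klf1) against 21.3%. CCNCNCCC was found in 4 of 7 (Hbb-bs, Hbb-bt, Epor and Alas2) against 34.6%, and the GATA motif in 3 of 7 (Klf1, Epor and Alas2) against 12.8%. The windows of Hba-a1 and Hba-a2 shared a run of 117 bases. A match is a description of the letters and not a binding site.

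In 9 lists of other genes of the red cell program, HFD 3 had the highest summed level in all 9 and CD 4 the lowest in 7. Of these genes, 110 were tested, of which 84 had a fitted mean above and 26 below 0, with a median of 0.38 on the log2 scale. Neither edgeR nor DESeq2 called any of them. Without HFD 3 the numbers were 48 above and 62 below, with a median of −0.025. At an unadjusted p under 0.05, 2 were higher in HFD (1.82%, against 2.46% of all tested genes) and 4 were lower (3.64%, against 7.2%). The groups were apart with HFD higher for 1 gene (0.909%, against 4.97%) and with HFD lower for 5 (4.55%, against 10.2%).

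Of 14 genes of heme synthesis and its transporters, 13 had a fitted mean above 0 and 1 below, with a median of 0.44. They included Slc25a37, which encodes the mitochondrial iron importer mitoferrin (0.42), Urod, a heme enzyme gene (0.49), and Tspo2 (1.13), which had the smallest p of the list (0.0891). Of 2 further globin genes tested, Hbq1b had a fitted difference of 0.87 and Hbq1a of 0.75, and the embryonic genes Hba-x, Hbb-y and Hbb-bh1 had too few counts to be tested. Of 13 iron uptake and storage genes, 10 lay above 0 and 3 below with a median of 0.12, with the ferritin chains Ftl1 (0.45) and Fth1 (0.14), Pcbp1, an iron chaperone gene (0.12), and Steap3, a ferrireductase gene (−0.45). Of 22 red cell membrane and skeleton genes, 18 lay above 0 and 4 below with a median of 0.41, among them the blood group gene Rhd (0.68), the water channel gene Aqp1 (−0.47) and Cd59a, a complement inhibitor gene (−1.09, groups apart). Without HFD 3 only 6 of these 22 lay above 0 and the median was −0.17.

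Of 15 erythroid transcription factor genes, 11 lay above 0 and 4 below with a median of 0.29, with values of 0.84 for Lmo2, 0.81 for Nfe2 and 0.47 for E2f2. The 12 tested genes of erythropoietin signalling were split evenly, 6 above and 6 below, with a median of −0.025. The kinase gene Lyn (0.66), the phosphatase gene Ptpn6 (0.97) and Pim1 (0.066) were its most abundant, and Gab1, which encodes an adaptor protein, had its smallest p (−0.96 ± 0.24 on the log2 scale, unadjusted p = 0.00475 and adjusted p = 0.466 by edgeR's quasi-likelihood test with Benjamini-Hochberg adjustment). Gab1 stood at 29.3, 23.2 and 31.9 TMM-scaled CPM in the CD libraries and 11.9, 13.9 and 17.6 in the HFD libraries, without overlap. With it, 3 of the 12 genes were apart with HFD lower, against 10.2% of all tested genes. Of 13 genes of reticulocyte clearance and enucleation, 9 lay above 0 and 4 below with a median of 0.44, including Ube2l6 (0.89) and the mitophagy receptor gene Bnip3l (0.31). Of 11 erythroid enzyme and antioxidant genes, 10 lay above 0 and 1 below with a median of 0.55, with Gpx1 (0.77), Car2 (0.47), Prdx2 (0.48) and the catalase gene Cat (0.86, unadjusted p = 0.0115, groups apart). Of 12 genes of early erythroid progenitors, 8 lay above 0 and 4 below with a median of 0.35, with Car2, Aqp1, Hemgn (0.33) and Myb, a progenitor transcription factor gene (1.03, unadjusted p = 0.0276).

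Markers of other marrow and bone cells also differed between the libraries. All 12 of 12 megakaryocyte and platelet genes lay above 0 (median 1.77, and 0.81 without HFD 3), and their summed level was 257 to 1062 TMM-scaled CPM in CD and 826 to 3116 in HFD, with HFD 3 highest and CD 2 second as for globin. All 13 of 13 proliferation genes lay above 0 (median 0.45, and 0.11 without HFD 3), with a summed level of 688 to 1662 in CD and 1032 to 1930 in HFD. Of 14 neutrophil genes 12 lay above 0, with sums of 4933 to 14820 in CD and 7450 to 15020 in HFD, and the highest library was HFD 2, not HFD 3. The erythroblastic island and iron-recycling macrophage list had 8 of 10 genes above 0 (median 0.84, and 0.60 without HFD 3), with sums of 201.3 to 353.6 in CD and 320 to 647 in HFD, and HFD 3 and CD 2 were again the highest libraries. DESeq2 called 1 of these 10 genes, against 1.65% of the genes it tested. This was Cd5l, which encodes a secreted macrophage protein (DESeq2 adjusted p = 0.00053). It was not called by edgeR's quasi-likelihood test with Benjamini-Hochberg adjustment (adjusted p = 0.466). At an unadjusted p under 0.05 by edgeR, 4 of the 10 were higher in HFD, against 2.46% of tested genes. The groups were apart with HFD higher for 2, against 4.97%. Hpgd was among the 2 genes below 0 (−0.87). Of 10 B cell genes 9 lay above 0 (median 1.33, and 0.997 without HFD 3). DESeq2 called 1 of these 10, against 1.65% of the genes it tested, and edgeR none. The B cell sums of 338 to 1049 in CD and 1599 to 4477 in HFD did not overlap. Most of each sum was Ighm, at 225 to 861 in CD and 1345 to 3976 in HFD. At an unadjusted p under 0.05 by edgeR, 4 of the 10 genes were higher in HFD, against 2.46% of tested genes. The groups were apart with HFD higher for 3 of the 10, against 4.97%. Cd79a overlapped, at 78.3 in CD 2 and 67.5 in HFD 2. Skeletal muscle genes ran the other way, with 10 of 12 below 0 and sums of 17200 to 93820 in CD and 6793 to 34740 in HFD, lowest in HFD 3, where the 9 genes were highest. Of 12 osteoblast and osteocyte genes, which define the labelled tissue, 11 lay below 0 (median −2.11). Their sums were 6667 to 75250 in CD, highest in CD 4, and 1573 to 7715 in HFD, lowest in HFD 3. DESeq2 called 5 of these 12, against 1.65% of the genes it tested, and edgeR none. At an unadjusted p under 0.05 by edgeR, 9 of the 12 were lower in HFD, against 7.2% of tested genes. The groups were apart with HFD lower for 4 of them, against 10.2%. Mitochondrially encoded genes took 37.9%, 15.3% and 28.1% of counts in CD 1, CD 2 and CD 4 and 15.5%, 15.6% and 38.6% in HFD 2, HFD 3 and HFD 4. No gene of the megakaryocyte, proliferation, neutrophil, B cell, muscle or osteoblast lists was at 0 in any library, and Timd4 of the macrophage list was at 0 in at least 1. The part of the cell makeup of each library in the globin values was not tested.

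**Figure D4:**
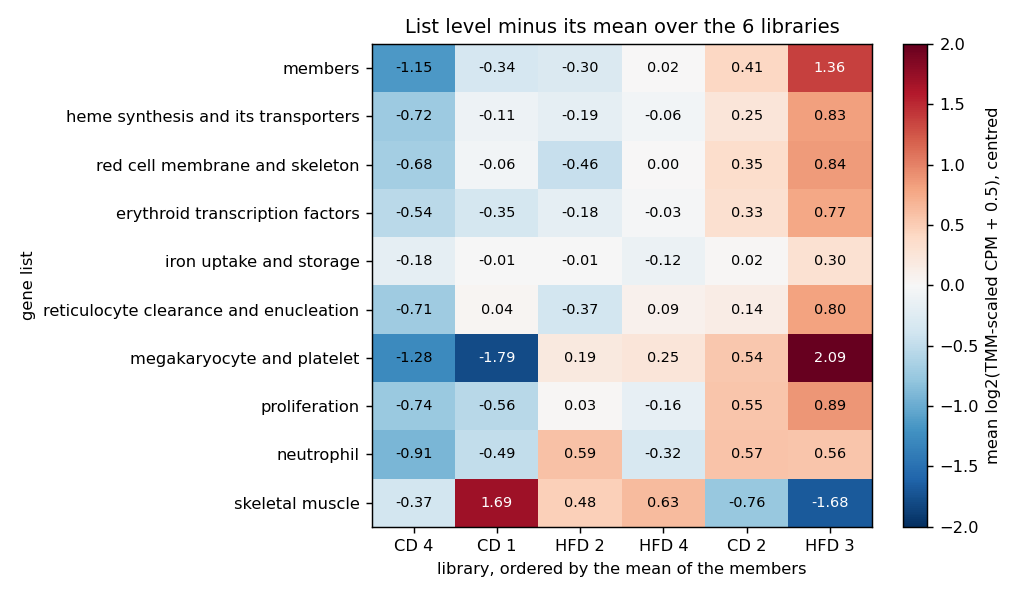
Mean log2(TMM-scaled CPM + 0.5) of each gene list (vertical axis) in each library (horizontal axis, ordered by the mean of the 9 genes, labelled members), minus the mean of that list over the 6 libraries; the number in each cell is that value and the colour repeats it. The 9 genes run from −1.15 in CD 4 to 1.36 in HFD 3, the heme synthesis list from −0.72 to 0.83 and the megakaryocyte list from −1.79 in CD 1 to 2.09 in HFD 3, while skeletal muscle is at −1.68 in HFD 3.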

How the data were processed

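The authors deposited 1 table of the series with raw gene counts and FPKM values per library (32000 genes). Per the labels, libraries were strand-marked and carried molecular identifiers. The submitters' processing notes list HISAT2 2.0.4, StringTie 1.3.4d, cutadapt 1.9, edgeR, DESeq2 and UMI-tools with no role given, and the study's methods name another aligner and counter. How the counts were made, whether strand was used and how reads shared by globin copies were assigned is therefore not settled, so the pairs were also summed. Whether duplicates were removed by identifier is not settled either.

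Counts were tested with edgeR 4.0.16 in R 4.3.3 by its quasi-likelihood test with TMM scaling and no covariate. Genes of low count were removed by filterByExpr (minimum count 10), and p-values were adjusted by Benjamini-Hochberg over the 19831 genes left, with a threshold of 0.05. Each SE was the absolute log2 fold change divided by the square root of F. Shares and ratios were compared with two-sided exact permutation tests (scipy 1.17.1). Alternatives were other scalings, mitochondrial genes left out, no filter, DESeq2 1.42.0, limma 3.58.1 on log2(FPKM + 1) and log2(FPKM + 0.1) for genes that reached an FPKM of 0.5 in 3 libraries, a replicate block, each library left out, and CD 4 against the HFD libraries. Libraries of the same diet differed beyond sampling noise, so none was counted as a duplicate.

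The members, the 22 further lists and the alternatives were chosen with earlier results of these data known. Named were the 9 members, for each erythroid list its 3 most abundant genes by mean FPKM and that with the smallest p, and the 5 genes most like the members, of which only genes at a mean CPM of at least 5 were considered, by log2(CPM + 0.5). Some genes that this rule names are not reported here. Genes of the marker lists were named beside a result. Ahsp, Hbb-bh0, Hbb-bh2 and Hbb-bh3 were not analysed here. Table coordinates are of GRCm38; promoter sequences are from RefSeq (GRCm38.p6) and coding sequences from GENCODE M21.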

Additional observations from a re-analysis of the deposited data

How the results depend on the processing

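No setting called any of the 9 genes. Leaving out each library in turn, the count of called members stayed at 0, the median log2 fold change ranged from 0.045 to 1.25, the summed alpha-globin difference from 0.011 to 1.16, the summed beta-globin difference from 0.15 to 1.27 and the difference in globin share from 0.111 to 1.87 percentage points. The lowest of these came without HFD 3, where Hba-a2, Alas2, Klf1 and Slc4a1 lay below 0. Their ranges were −0.038 to 1.12, −0.026 to 1.06, −0.16 to 1.31 and −0.23 to 0.84. The Car1 to Slc4a1 difference, chosen after the data were seen, ranged from 0.72 to 1.15. This range does not cover CD 1 and CD 2 left out together, the libraries with few intestinal transcripts. They held the lowest ratios (0.0992 and 0.115), against 0.181 in CD 4 and 0.215 to 0.281 in HFD. CD 4 against the 3 HFD libraries gave a median of 1.70. The other scalings, filters and tools gave medians of 0.71 to 0.96, with adjusted p-values of the members from 0.102 to 0.912. Total-count scaling moved the median of all genes to 0.24, and limma on FPKM to 0.20 and 0.27. Over all genes, edgeR called 0, DESeq2 342 and limma 10 or 7, and edgeR called 24 without CD 4.

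With a replicate block the median was 0.21, the summed alpha-globin difference 0.17, the summed beta-globin difference 0.39 and Slc4a1 −0.13, with 0 members called. Only 2 numbers occurred in both diets. Same-numbered libraries deviated together in one case (r = 0.253) and not in the other (r = −0.253). Differently numbered libraries had r from −0.518 to 0.617, so these values cannot show whether a shared number stands for a pairing.

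With 3 libraries a group and a 4.29- to 6.71-fold range between libraries, differences of the size fitted here could not be separated from the spread. Counting error was small beside it, with at least 53256 counts for each globin gene and library.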
